A study of Mus musculus with 4 samples.

Results

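The 9 genes described here, Shh, Smo, Ptch1, Gli1, Gli2, Gli3, Sufu, Hhip and Boc, make up the core of the Sonic hedgehog pathway. They were taken by gene name from a table of reads counted on 26433 mouse genes in bulk RNA sequencing of E15 cortex. The paper names cortices in its results and telencephalic tissue in its methods, so ventral tissue may be included. All 9 were in the table, and 7 had enough reads to be tested among 15786 genes. The study compared 2 cKI f/+ with 2 WT libraries to see which cortical genes differ when human SERPINA3 is expressed in neural progenitors. In cKI f/+ embryos, a CAG promoter and a floxed stop cassette precede human SERPINA3 at the Rosa26 locus, and Nestin-Cre removes the stop in Nestin-positive cells and their progeny. WT embryos were littermates, and whether they carried Nestin-Cre is not given in the sources used here. Both groups are labelled C57BL/6, although the founders of the knock-in line were bred with B6D2F2 mice before the cross with Nestin-Cre mice. The knock-in libraries are named KI2 and KI3 and the WT libraries WT1 and WT3. The transgene itself was not analysed here.

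Sonic hedgehog is a secreted protein that is made in the ventral forebrain, among other sites. Without ligand, the receptor Ptch1 holds Smo inactive, and Gli3 and Gli2 are cut into repressors. When ligand binds Ptch1 together with a co-receptor such as Boc, Smo enters the primary cilium, Sufu releases the Gli proteins and target genes, among them Gli1, Ptch1 and Hhip, are transcribed. In the dorsal telencephalon, Gli3 acts largely as a repressor that protects dorsal identity, and activated Smo is known to enlarge the pool of basal progenitors.

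At E15, Smo, Boc, Sufu, Gli2 and Gli3 were well expressed, Ptch1 and Gli1 were low, and Shh and Hhip were near 0. None of the 7 tested genes passed the test between cKI f/+ and WT cortex, at an adjusted p under 0.05, which 0.120% of all tested genes passed. Smo and Boc were between 16.7 and 20.6 reads per kilobase of exon, scaled to the reads of the library (RPKM) in every library, while Ptch1 and Gli1 lay near 1 RPKM and Shh and Hhip had at most 6 reads in any library. Gli1 had a log2 fold change of 0.40 and Ptch1 of -0.23, and without KI3 these were 0.13 and -0.19.

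The libraries held between 17423512 and 18119444 reads, so that 3 reads, taken as the limit of detection, correspond to 0.166 to 0.172 CPM (reads scaled to the library total), counting error only. Nothing in the labels says how many embryos went into a library. The p-values set each difference against a spread between these libraries that is partly shared across genes. The deposited gene positions match mouse build GRCm38. Markers of dorsal cortex such as Neurod6, Neurog2 and Eomes were abundant in all 4 libraries, and the 9 listed markers summed to between 3034 and 3342 CPM. Xist and the 4 listed genes of chromosome Y were all called between the groups, so that embryo sex and genotype cannot be told apart in any comparison here.

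**Figure D1:**
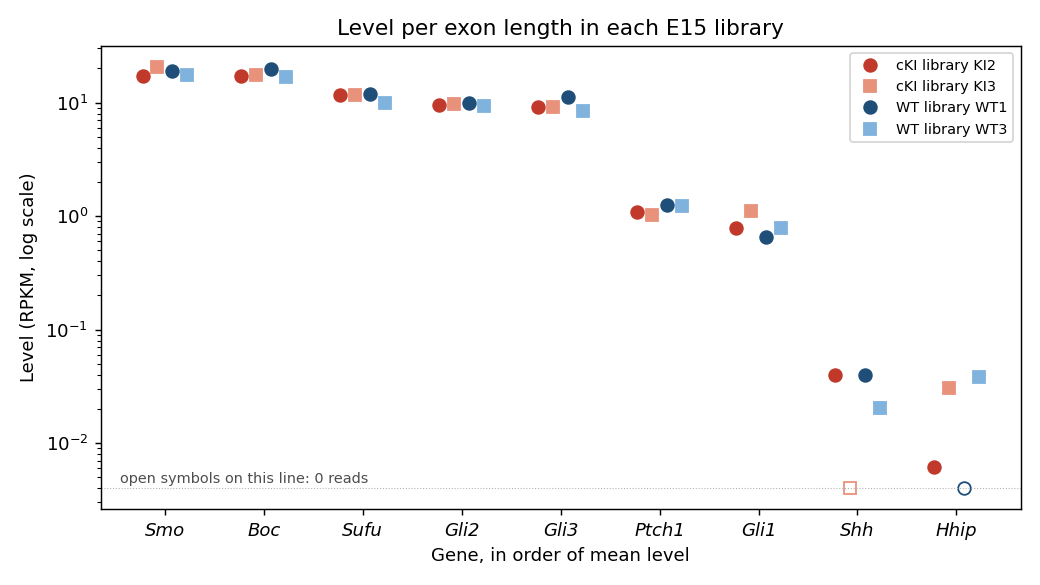
Level of each of the 9 genes in RPKM, on a log axis, in the cKI f/+ libraries KI2 and KI3 and the WT libraries WT1 and WT3. The order falls from Smo, with a mean of 18.6 RPKM, to Hhip with 0.0186, and open symbols mark libraries with 0 reads.

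Levels were compared between genes per exon length, as RPKM. Smo, the membrane protein that passes the signal into the cell, had the highest mean level at 18.6 RPKM, which placed it at the 80.2th percentile of tested genes. Boc, a co-receptor that binds the ligand, followed at 17.8 RPKM, and its range over the 4 libraries overlapped that of Smo. Sufu, the inhibitor that holds Gli proteins in the cytoplasm, had 11.3 RPKM, and the transcription factors Gli2 and Gli3 had 9.62 and 9.47 RPKM. The ranges of Sufu, Gli2 and Gli3 overlapped from each neighbour to the next, and all lay below those of Smo and Boc. Ptch1 at 1.14 RPKM and Gli1 at 0.828 RPKM formed a lower step, at the 22.9th and 18.6th percentiles of tested genes. Their ranges overlapped with each other and with no other gene. Shh at 0.0249 RPKM and Hhip at 0.0186 RPKM stood lowest and could not be ordered.

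Within a library, the ratio of RPKM between Smo and Ptch1 lay between 14.3 and 20.3, and that between Gli3 and Gli2 between 0.904 and 1.12. Gli3 exceeded Gli1 by a ratio of 8.32 in KI3, 10.7 in WT3, 11.8 in KI2 and 17.2 in WT1. The order of the genes was the same in KI2 and WT3 down to Gli1, whereas WT1 had Boc above Smo and Gli3 above Gli2, and KI3 had Gli1 above Ptch1.

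Shh was at or under the limit of detection in every library. It had 2 reads in KI2 and 0 in KI3, against 2 for WT1 and 1 for WT3. The 0 in KI3 allows a level of up to 0.166 CPM. No fold change is given, since both groups lie under the limit. An antisense gene, 9530036O11Rik, shares 446 exon bases with Shh and the lincRNA Gm26894 shares 361, and the strand setting of the counting is not given in the sources used here.

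The other ligands and the proteins that release them were also examined, as a list of 8 genes with Shh among them. Ihh, the ligand best known from cartilage, had 10 reads in each cKI f/+ library, 4 in WT1 and 5 in WT3. Dhh, the ligand of Schwann and Sertoli cells, had 2 and 4 reads in cKI f/+ and 0 and 2 in WT libraries. Both genes were too low to be tested. Scube2, which helps release the ligand, had 6 and 5 reads in cKI f/+ and 2 and 3 in WT libraries, also below the filter. The 4 tested genes of this list were Hhat, which adds palmitate to the ligand, Disp1, which exports it, Scube1 and Scube3. Their log2 fold changes lay between -0.15 and 0.03 and 0 were called.

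Among the receptors, Ptch1 had 272 reads in KI2 and 261 in KI3, against 313 for WT1 and 302 for WT3. Scaled to depth, its level was 14.9 ± 0.658 CPM (SD, n = 2) in cKI f/+ and 17.6 ± 0.308 CPM (SD, n = 2) in WT embryos. Both cKI f/+ libraries were below both WT libraries. Ptch1 thus had a log2 fold change of -0.23 (SE 0.13, 95% interval -0.52 to 0.05, edgeR adjusted p = 0.969). Ptch1 was the 1 tested member of the 7 whose groups did not overlap in this direction, against 18.0% of all tested genes, and 0 of the 7 were higher without overlap, against 16.0%. Leaving out each library in turn gave log2 fold changes of Ptch1 between -0.29 and -0.19, a sign already set by the groups not overlapping.

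Ptch1 spans 63508328 to 63573598 of chromosome 13 (GRCm38, minus strand). Its promoter is shown because Ptch1 is both receptor and target of the pathway and its libraries did not overlap. The 250 bases before the RefSeq start site (GRCm38.p6, chr13:63565736-63565985, minus strand, inside the gene's annotated span) are printed from 5′ to 3′ with each CG pair in capitals.

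Ptch1 upstream window: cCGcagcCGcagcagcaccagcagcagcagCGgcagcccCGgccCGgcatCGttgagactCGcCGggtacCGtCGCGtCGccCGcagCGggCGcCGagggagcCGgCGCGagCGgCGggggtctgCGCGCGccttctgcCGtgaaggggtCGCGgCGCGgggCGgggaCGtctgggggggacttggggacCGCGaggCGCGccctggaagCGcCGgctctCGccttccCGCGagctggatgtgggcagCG

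The window held 41 CG pairs and 78.4% G and C, and 98.9% of all RefSeq windows of this length held fewer CG pairs. Windows from 250 bases before to 50 after a RefSeq start site were matched for 6 of the 9 genes, Smo, Ptch1, Gli2, Gli3, Sufu and Hhip, and not for Shh, Gli1 and Boc. The Gli binding letters GACCACCCA, searched on both strands with at most 1 mismatch, were in 0 of these 6 windows and in 6.74% of 32851 windows of all genes. The absence says only that these letters are not in these windows.

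Smo had 1725 reads in KI2 and 2098 in KI3, against 1888 for WT1 and 1715 for WT3, and the groups overlapped. The mean was 107 ± 13.1 CPM (SD, n = 2) in cKI f/+ and 103 ± 6.19 CPM (SD, n = 2) in WT embryos. This gave a log2 fold change of 0.06 (SE 0.10, 95% interval -0.16 to 0.27, edgeR adjusted p = 0.994). KI3 was the highest of the 4 libraries, and without it the log2 fold change of Smo was -0.07.

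Boc had 1358 reads in KI2, 1422 in KI3, 1549 for WT1 and 1297 for WT3. The WT libraries enclosed the cKI f/+ libraries. For Boc the log2 fold change was -0.06 (SE 0.09, 95% interval -0.27 to 0.15, edgeR adjusted p = 0.993).

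Hhip, a membrane protein that binds and sequesters the ligand, had 1 read in KI2 and 5 in KI3, against 0 for WT1 and 6 for WT3. The groups held 6 reads each, a cKI f/+ to WT ratio of 0.977 with an exact 95% counting interval from 0.261 to 3.66. The difference between libraries of a group was as large as the values themselves, and no change was detectable at this depth.

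The other receptors of the list were not called either. Gas1 and Cdon, co-receptors like Boc, were more abundant per length, with 40.8 and 35.9 RPKM. Cdon had 5040 and 4629 reads in cKI f/+ and 5584 and 4386 in WT libraries, a log2 fold change of -0.07. Gas1 had 2109 and 2177 reads against 2230 and 2057, a log2 fold change of -0.03. Gpc3, a glypican that competes with Ptch1 for the ligand, had 126 and 172 reads in cKI f/+ and 107 and 110 in WT libraries. Its log2 fold change was 0.43 (SE 0.20, edgeR adjusted p = 0.969). Gpc3 lies on chromosome X, and embryo sex cannot be told apart from genotype in these libraries. Lrp2, an endocytic receptor, had between 15 and 21 reads in each library. Of the 9 listed receptors, 8 were tested and 0 were called, and their median log2 fold change was 0.0144 against 0.0043 over all tested genes.

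**Figure D2:**
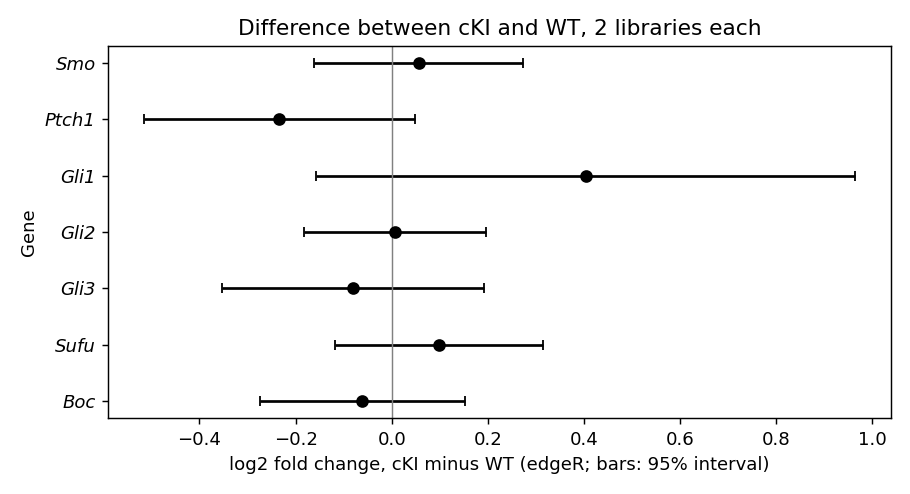
Log2 fold change of the 7 tested genes between cKI f/+ and WT embryos (points) with 95% intervals (bars). All 7 intervals include 0, and that of Gli1 is the widest, from -0.16 to 0.96.

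Gli1 is the transcription factor whose own transcription depends most on active signaling. It had 69 reads in KI2 and 100 in KI3, against 57 for WT1 and 68 for WT3. Its level was 4.70 ± 1.15 CPM (SD, n = 2) in cKI f/+ and 3.57 ± 0.472 CPM (SD, n = 2) in WT embryos. KI3 was the highest library at 5.52 CPM. KI2 at 3.89 CPM lay between WT1 at 3.24 CPM and WT3 at 3.90 CPM, so that the groups overlapped. Gli1 had a log2 fold change of 0.40 (SE 0.25, 95% interval -0.16 to 0.96, edgeR adjusted p = 0.969). The interval includes a fold of 0.897 as well as 1.95. Without KI3 the log2 fold change was 0.13, and without KI2 it was 0.62.

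KI3 also carried more RNA of choroid plexus markers than the other libraries. The 7 listed markers summed to 67.6 CPM in KI3, 10.4 in KI2, 2.38 in WT1 and 4.71 in WT3, and Ttr, the main transcript of this tissue, had 956 reads in KI3, 116 in KI2, 0 in WT1 and 4 in WT3. Most of the sum was Ttr in KI3 and KI2, at 52.8 and 6.54 CPM. Of the 5 tested, all had log2 fold changes above 0, and 3, Ttr, Aqp1 and Clic6, had an unadjusted p under 0.05 in edgeR's test, with 0 called. In KI2, however, Otx2 with 13 reads was below WT1 with 19 and WT3 with 39. Folr1 in KI2, with 9 reads, lay between WT1 with 3 and WT3 with 16. Kcnj13 and Kl, also on the list, had at most 2 reads in any library. Markers of meninges, 7 genes such as Col1a1 and Dcn, summed to 21.8 and 19.9 CPM in cKI f/+ and 9.99 and 11.5 CPM in WT libraries, and 4 of the 5 tested were higher at an unadjusted p under 0.05, against 4.60% of all tested genes in either direction. Foxc1, also on this list, went the other way, with 26 and 38 reads in cKI f/+ and 53 and 35 in WT libraries, a log2 fold change of -0.49. Lum and Aldh1a2 had at most 9 reads in any library. The part of these tissues in the level of Gli1 was not tested. In bulk tissue, fewer cells of a type and less RNA per cell cannot be told apart.

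Gli2, which carries most of the activator function, had 1165 reads in KI2 and 1204 in KI3, against 1206 for WT1 and 1108 for WT3. The mean was 66.1 ± 0.541 CPM (SD, n = 2) in cKI f/+ and 66.0 ± 3.44 CPM (SD, n = 2) in WT embryos. The log2 fold change was 0.01 (SE 0.08, 95% interval -0.18 to 0.20, edgeR adjusted p = 0.997). The interval covers folds from 0.881 to 1.15.

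Gli3, the main repressor, had 1562 reads in KI2, 1597 in KI3, 1881 for WT1 and 1398 for WT3. The cKI f/+ libraries were nearly equal and lay between the WT libraries. For Gli3 it came to -0.08 on the log2 scale (SE 0.12, 95% interval -0.35 to 0.19, edgeR adjusted p = 0.993). Its sign depended on the WT library used, at -0.27 without WT3 and 0.14 without WT1.

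In CPM, Sufu had its cKI f/+ libraries between the WT libraries too, with 1577 reads in KI2 and 1626 in KI3, against 1607 for WT1 and 1328 for WT3. WT3 was the low library. Between the groups, Sufu had a log2 fold change of 0.10 (SE 0.10, 95% interval -0.12 to 0.32, edgeR adjusted p = 0.985). Without WT1 it was 0.23 and without WT3 it was -0.02.

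Of the 7 tested genes, 0 were called by edgeR, and 0 had an unadjusted p under 0.05, against 4.60%. DESeq2 and edgeR's likelihood ratio test also called 0 of them. The median log2 fold change of the 7 genes was 0.0064, beside 0.0043 over all tested genes, with 4 genes higher and 3 lower in cKI f/+ embryos. With 2 libraries against 2, permutation of the labels of a single gene (exact, two-sided) cannot give a p below 0.333, so the edgeR p-values draw on a spread shared across genes. For Smo, Boc, Gli2, Gli3 and Sufu, the 95% intervals lay between log2 fold changes of -0.3526 and 0.3152.

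**Figure D3:**
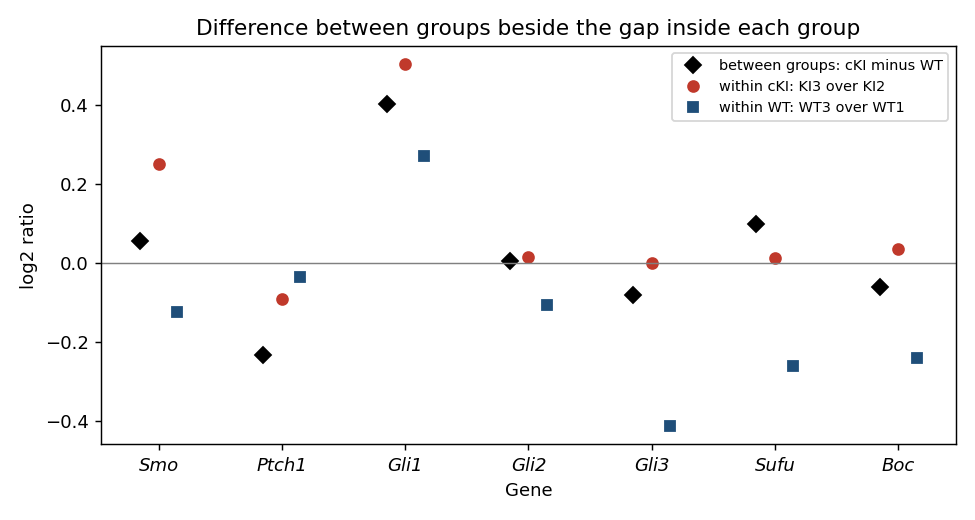
Log2 ratio between groups (diamonds) beside the ratio of KI3 to KI2 (circles) and of WT3 to WT1 (squares) for the 7 tested genes. For 5 of the 7, the gap between the WT libraries exceeds the difference between the groups.

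For 5 of the 7 genes, Smo, Gli2, Gli3, Sufu and Boc, the gap between the WT libraries was larger than the difference between the groups. WT3 was below WT1 for 6 of the 7, by log2 ratios of CPM from -0.04 for Ptch1 to -0.41 for Gli3. The gap of Gli3 was larger than that of 83.8% of tested genes in the same pair. Over all tested genes, the median log2 ratio of WT3 to WT1 was 0.01 and the median size of the gap was 0.15. Summed markers of the ventral telencephalon, 13 genes such as Dlx2 and Gsx2, were at 363 CPM in WT3 and 290 in WT1, and those of dorsal cortex at 3161 and 3342 CPM. The part of dissection in this gap was not tested. Within the cKI f/+ group, Gli2, Gli3, Sufu and Boc differed between KI3 and KI2 by log2 ratios of at most 0.04, while Smo differed by 0.25 and Gli1 by 0.50.

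Gli1 and Ptch1, the targets among the 9 genes that could be tested, differed in opposite directions. The ratio of Gli1 to Ptch1, in RPKM within a library, was 0.720 in KI2 and 1.09 in KI3 against 0.517 in WT1 and 0.639 in WT3. The groups did not overlap, and the mean log2 ratio was higher in cKI f/+ embryos by 0.62. A two-sided exact permutation test gave p = 0.333, the smallest it can give here. Any ratio whose groups do not overlap gives this p, so the test cannot decide whether the ratio differs. The ratio of Gli1 to Ptch1 was chosen after the values were seen, and its separation rests on the values of these genes given above. The ratio of Smo to Ptch1 was 16.0 and 20.3 in cKI f/+ and 15.2 and 14.3 in WT libraries, a log2 difference of 0.29 with the same permutation p. That of Boc to Ptch1 was 15.9 and 17.4 against 15.8 and 13.7, again with this p. Both reuse Ptch1, whose groups did not overlap, and are not independent of the first ratio. How often ratios of other genes separate the groups was not tested. The ratios of Gli3 to Gli1 and of Gli3 to Gli2, given above, were also tested, and for both the groups overlapped. That of Gli3 to Gli1 gave a permutation p of 0.667.

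**Figure D4:**
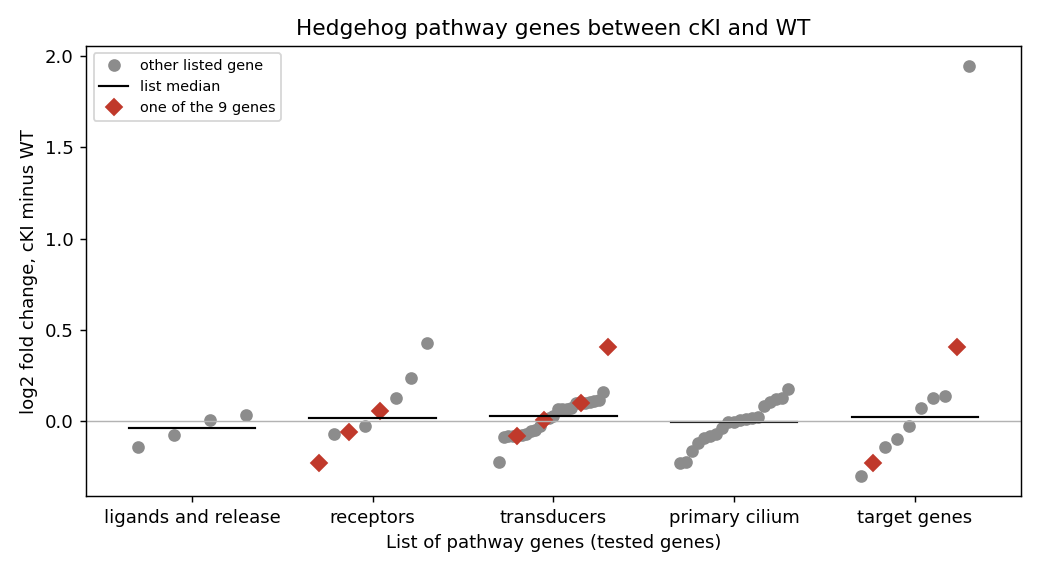
Log2 fold change of every tested gene of 5 lists of hedgehog pathway genes, with diamonds for the 7 tested genes described here and a line at each list's median. All medians lie between -0.04 and 0.03, and Nkx2-1, at 1.94, stands apart among the target genes.

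The wider pathway was described with 5 lists of ligands, receptors, transducers, primary cilium genes and targets, together 72 genes in the table. Of these, 63 were tested and 0 were called by edgeR's quasi-likelihood test, by DESeq2 or by the likelihood ratio test. The log2 fold change was above 0 for 33 and below 0 for 30, with a median of 0.0045, and 1 gene had an unadjusted p under 0.05, against 4.60% of all tested genes. Both cKI f/+ libraries were above both WT libraries for 12 of the 63 and below them for 8, against 16.0% and 18.0% of all tested genes. The 25 transducers had a median of 0.03. Among them, Tulp3, which carries receptors into the cilium, had 986 and 1002 reads in cKI f/+ and 890 and 858 in WT libraries, a log2 fold change of 0.16. Gpr161, a ciliary receptor that keeps the pathway off, had a log2 fold change of 0.03, and Kif7, a kinesin that organises the tip of the cilium, of 0.07. Prkaca, a catalytic subunit of the protein kinase that primes Gli3 for cutting, had 0.10. Efcab7, a protein that anchors a signaling compartment near the ciliary base, had a log2 fold change of -0.23. The 19 cilium genes had a median of -0.01. Rpgrip1l and Tmem67, proteins of the ciliary transition zone, were at -0.22 and -0.23, and B9d1, of the same zone, was at 0.17.

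Among the targets outside the 9 genes, Ccnd1, Ccnd2 and Mycn, which drive the cell cycle, had log2 fold changes of -0.10, -0.03 and 0.07. Sfrp1, a Wnt antagonist, had -0.14 and Bcl2, a survival factor, 0.14. Nkx2-1, a transcription factor that hedgehog signaling induces in the ventral telencephalon, had 19 and 17 reads in cKI f/+ and 6 and 3 in WT libraries. Its log2 fold change was 1.94 (SE 0.53, edgeR adjusted p = 0.802), and it was the 1 gene of the wider lists with an unadjusted p under 0.05. Olig2, a factor of ventral progenitors and oligodendrocyte precursors, had 52 and 79 reads against 70 and 88, a log2 fold change of -0.30. Nkx2-2, Nkx6-1, Nkx6-2 and Foxf1 had at most 9 reads in any library, and Foxa2 was not analysed here.

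**Figure D5:**
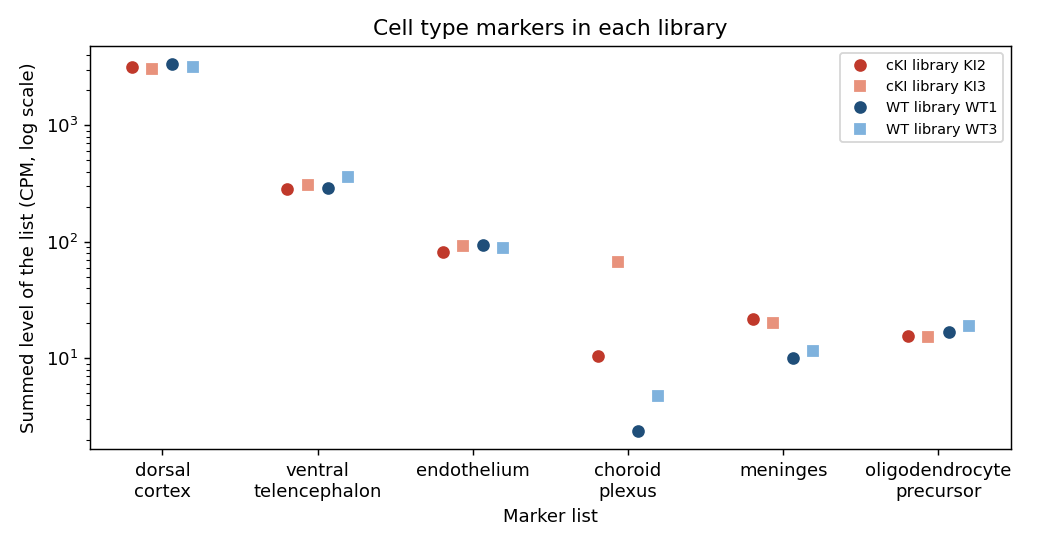
Summed CPM of 6 marker lists in each library, on a log axis. Dorsal cortex markers are close in the 4 libraries, and choroid plexus markers are highest in KI3 at 67.6 CPM. Summed meningeal markers are higher in both cKI f/+ libraries, though not every gene of that list is.

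The source of ligand and the cells that respond to it lie largely in ventral tissue, so markers of that tissue were set beside the 9 genes. Lhx6, a factor of migrating interneurons, had 1101 and 919 reads in cKI f/+ and 962 and 1044 in WT libraries. Dlx2, which is expressed in ventral progenitors, had 437 and 609 reads against 679 and 862, a log2 fold change of -0.59 (SE 0.16, edgeR adjusted p = 0.777). Gsx2, a progenitor factor of the lateral ganglionic eminence, had 2 reads in KI2 and 28 in KI3, against 29 for WT1 and 40 for WT3. Isl1, a factor of striatal neurons, had 1 read in KI2 and 30 in KI3, against 21 for WT1 and 32 for WT3. KI2 was thus low in Gsx2 and Isl1, and it was the library with 5 reads of Lhx8, a factor of the medial ganglionic eminence, which had 0 in the others. Of the 13 markers, 12 were tested and 0 were called by edgeR, with 2, Nkx2-1 and Dlx2, at an unadjusted p under 0.05 in opposite directions, against 4.60% of all tested genes. The log2 fold change was above 0 for 4 of the 12 and below 0 for 8, with a median of -0.16. The 5 markers of oligodendrocyte precursors summed to 15.3 to 19.1 CPM, with 0 called. All 5 had log2 fold changes below 0, with a median of -0.30, and the groups overlapped for each. Of 6 listed blood markers, 5 had log2 fold changes below 0 and 1 above, with 0 called. Of these 6, 3 had an unadjusted p under 0.05 in edgeR's test. For 4 of the 6, both cKI f/+ libraries were below both WT libraries, against 18.0% of all tested genes. The 5 listed Cajal-Retzius markers all had log2 fold changes above 0 and summed to 486 CPM in KI2 and 325 in KI3, beside 359 in WT1 and 333 in WT3, with 0 called. Most of each sum was Reln, at 404, 245, 297 and 259 CPM in the same order. Both cKI f/+ libraries were above both WT libraries for 4 of the 5, against 16.0% of all tested genes. An unadjusted p under 0.05 was found for 1, Lhx1, against 4.60%. The part of dissection in the levels of Gli1, Ptch1 and Nkx2-1 was not tested.

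As for overlapping annotation, Gli1 (chromosome 10, from 127329882 to 127341974, minus strand) shares 265 exon bases with the antisense gene Gm47200 and 62 with Arhgap9 on the opposite strand. Gli3 shares 188 exon bases with Gm6556 on the opposite strand, and Hhip shares 175 with Gm27820. Without the strand setting of the counting, reads in these stretches cannot be assigned to one gene or the other. Smo, Ptch1, Gli2, Sufu and Boc share 0 exon bases with another annotated gene.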

How the data were processed

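RNA sequencing (Illumina HiSeq) covered the telencephalon at E15, with 2 cKI f/+ and 2 WT libraries. For each gene the authors deposited unnormalized counts. The submitters' processing notes list Bowtie2 2.2.3, TopHat2 2.0.12, HTSeq 0.6.0 and the build mm9, while 24485 of 26433 gene positions equal those of GENCODE M21 on GRCm38. The strand setting is not given in the sources used here. Columns were assigned to a genotype by their names, not to single labelled samples, and the labels mention triplicates, of which 2 per group were analysed here. The deposited columns of mean count, fold change, log2 fold change, p-value and adjusted p-value were not used.

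Counts were tested with edgeR 4.0.16 in R 4.3.3 (default expression filter, TMM normalization, quasi-likelihood test), with Benjamini-Hochberg adjustment over 15786 genes and a threshold of 0.05. The biological coefficient of variation was 8.72%. The standard error is the log2 fold change divided by the square root of F, and intervals are at 95%. CPM is scaled to the library total, and RPKM further to the union of exons in GENCODE M21. The scripts were tested on simulated data. Alternatives were DESeq2 1.42.0, the likelihood ratio test, other normalizations and filters, leaving out chromosomes X and Y, and omitting single libraries.

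The 9 genes and the lists were chosen with earlier results of these data known. Named genes were the 9 genes, the listed ligands and receptors, the 5 highest and 5 lowest listed pathway genes, and markers. Others, such as Tulp3, Gpr161, Kif7, Prkaca, Ttr and the cell cycle targets, were chosen after their values were seen. The values of 1 listed gene are not reported here.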

Additional observations from a re-analysis of the deposited data

How the results depend on the processing

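The 7 tested genes held 0 called genes under all 11 alternatives, and so did the wider lists. Leaving out 1 library gave between 0 and 1 of the 7 genes at an unadjusted p under 0.05, namely Gli1 without KI2, Sufu without WT1 and Gli3 without WT3. By edgeR's test the unadjusted p-values were 0.0437, 0.0269 and 0.00972. In these fits the lone library of a group is assumed to vary like the others. The log2 fold change changed sign, without a call, in such fits for 5 genes, and it ranged from -0.074 to 0.16 for Smo, from -0.0439 to 0.0605 for Gli2, from -0.27 to 0.14 for Gli3, from -0.0229 to 0.23 for Sufu and from -0.17 to 0.064 for Boc. Gli1 and Ptch1 kept their sign under all 11 alternatives, from 0.13 to 0.62 and from -0.29 to -0.19. The groups of Ptch1 did not overlap, so omitting a library could not reverse its sign, and all settings reuse the same libraries. Of 77 values of single genes under alternatives, 69 kept their direction and 8 did not. The wider lists held 1 gene at an unadjusted p under 0.05, 0 when each library had to hold 10 counts, and 3, 1, 6 and 7 when KI2, KI3, WT1 and WT3 were omitted. Over all genes, 19 were called, 54 by the likelihood ratio test, 6 under the filter of 10 counts, 11 on autosomes alone, and 46 to 71 when a library was omitted. The filter of 10 counts removes Xist and the 4 listed genes of chromosome Y, which had at most 5 reads in each library of 1 group. The autosome setting leaves them out as well. The cause of the other shifts was not tested. Shh and Hhip, with 5 and 12 reads in all, are limited by depth. No paired analysis was possible because the sample labels of the groups share no replicate number. The column names KI3 and WT3 share a number, which is fewer than the 2 needed, and the numbers of KI3 and WT1 match no label of their group.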

Other observations

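Genes that the deposited table annotates with a process term naming the smoothened signaling pathway were looked at after the data were seen, in addition to the lists of the report. Of 138 such genes, 107 were tested and 0 were called by edgeR's quasi-likelihood test, against 0.120% of all tested genes. An unadjusted p under 0.05 was found for 8 of the 107, against 4.60% of all tested genes, and the groups did not overlap for 12 higher and 15 lower genes, against 16.0% and 18.0%. The 8 genes are given as a description, since they were chosen by their values and none passed the adjusted test. Ttbk2, a kinase that starts the assembly of the cilium, had 1037 and 1027 reads in cKI f/+ and 1246 and 1216 in WT libraries, a log2 fold change of -0.28. Tbc1d32, which takes part in cilium assembly, had 113 and 111 reads against 171 and 145, a log2 fold change of -0.52. Sall3, Trove2 and Rb1 had log2 fold changes of -0.35, -0.26 and -0.25. Fgfr3, an FGF receptor of cortical progenitors, had 2933 and 3309 reads against 2400 and 2654, a log2 fold change of 0.28. Rfx4, a transcription factor of neural progenitors and cilium genes, and Wnt9a had log2 fold changes of 0.28 and 1.13. The adjusted p-values of the tested genes of this list began at 0.881 in edgeR's test.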
